A study of Mus musculus with 24 samples.

Results

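The genes described here are 34 genes of cardiac macrophages and other leukocytes, measured in mouse ventricle at 2 ages with and without executioner caspases. They were chosen by name for their known roles, with earlier results of these data known. A gene entered when a probe set carried its symbol alone. All 34 were measured, each by 1 probe set, out of 18819 genes with such a probe set. The groups were young KO, young WT, newborn KO and newborn WT, with 6 hearts and 6 arrays each, so 24 arrays in all. By the labels young mice were at postnatal day 30 and newborn mice at days 1 to 2, while the study's methods give days that differ slightly from these. All were on the C57BL/6J background, written C57/Bl6 in the labels. KO mice lacked 1 executioner caspase in every cell, leukocytes included, and lost the floxed allele of another through Cre driven by a cardiac Nkx2.5 enhancer, so that one was lost only where the enhancer is or had been active. The study describes some protein of the floxed caspase left in newborn KO hearts. WT mice carried both intact. Values are deposited log2 signals, normalised together by RMA, and a difference of 1 is a doubling of signal.

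Macrophages are the main leukocytes of the healthy heart. Resident cardiac macrophages derive largely from embryonic precursors, sustain themselves by division and carry scavenger and lipid-recognition receptors such as Timd4, Lyve1 and Folr2, whereas macrophages and dendritic cells that display antigen on MHC class II molecules are replenished to a greater degree from blood monocytes that carry Ccr2. Executioner caspases carry out apoptosis, and macrophages clear apoptotic cells by complement C1q, phosphatidylserine receptors such as Timd4 and related receptors. RNA was taken from whole ventricle, so fewer cells of a type and less RNA per cell cannot be told apart.

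Cardiomyocyte markers were high on every array, with array means of 11.88 to 12.14 over 12 ventricular genes. A few arrays stood apart. Newborn KO array 6, newborn KO array 2 and young WT array 2 had airway and lung epithelial transcripts, with means over 12 such genes of 8.15, 5.37 and 4.31, while the other 21 arrays lay between 3.03 and 3.68. This list was added after the values were seen. Newborn WT arrays 2 and 3 and newborn KO array 5 had the highest T cell transcripts of their groups, with Cd8a at 4.81 in newborn KO array 5 and at 5.41 and 5.51 in newborn WT arrays 2 and 3. Fibroblast and atrial markers were higher on average in young KO than in young WT hearts, with group means of 9.06 in young KO and 8.51 in young WT for 12 fibroblast genes, and of 7.98 in young KO and 6.44 in young WT for 12 atrial genes, although the arrays of both groups overlapped. Counts of members, and the members that moved most with these arrays, are given with and without them. In newborn hearts the fibroblast means were 9.40 in KO and 9.43 in WT, and the atrial means 8.20 in KO and 8.07 in WT. On average both lists were thus lower in young than in newborn hearts, more so in WT than in KO. Their part in the differences between ages was not tested.

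Promoter sequence is shown for the MHC class II genes, because these members had large and shared differences between ages. MHC class II genes are classically switched on by CIITA, a coactivator that docks on factors bound to the X box and the Y box upstream of each gene. RefSeq sequences on mouse build GRCm38.p6 were at hand for 27 of the 34 members, and of the MHC class II members they held H2-Aa and H2-Eb1. The 250 bases before the start of each are printed 5′ to 3′ on the gene's own strand. H2-Oa, a regulator of peptide loading, is printed beside them. Of 11 genes that load or regulate MHC class II and had a sequence, H2-Oa was the only 1 with the motif pair described below. Capitals mark GCAAC, the core of the X box, and CTGATTGG, the Y box. H2-Aa lies on the minus strand at chr17:34287824-34288073, H2-Eb1 on the plus strand at chr17:34305617-34305866, and H2-Oa on the plus strand at chr17:34092129-34092378.
H2-Aa: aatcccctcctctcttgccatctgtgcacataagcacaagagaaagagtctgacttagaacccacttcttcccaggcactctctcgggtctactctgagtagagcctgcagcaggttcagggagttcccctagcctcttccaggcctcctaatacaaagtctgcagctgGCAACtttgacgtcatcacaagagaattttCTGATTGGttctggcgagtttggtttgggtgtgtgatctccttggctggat
H2-Eb1: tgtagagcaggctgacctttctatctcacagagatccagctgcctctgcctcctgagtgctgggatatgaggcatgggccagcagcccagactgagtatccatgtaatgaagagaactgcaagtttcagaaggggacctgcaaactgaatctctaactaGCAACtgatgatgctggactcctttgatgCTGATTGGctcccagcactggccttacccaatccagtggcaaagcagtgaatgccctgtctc
H2-Oa: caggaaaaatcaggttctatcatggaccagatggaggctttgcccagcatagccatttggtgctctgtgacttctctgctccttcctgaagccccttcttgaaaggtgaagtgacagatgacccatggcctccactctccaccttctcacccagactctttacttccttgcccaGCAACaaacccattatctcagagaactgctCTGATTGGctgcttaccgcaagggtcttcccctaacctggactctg

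In each of these stretches GCAAC stood 24 or 25 bases before CTGATTGG. Searched on both strands, with no overlap between the motifs and 20 to 30 bases between them, the pair was found in 15 of 27025 upstream stretches (0.0555%), among them these genes and no other member with a sequence. The spacing was set after these sequences were read. Alone, the Y box letters were present in 4.07% of all stretches and the X box core in 30.1%. A match is a description of letters and says nothing of binding.

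**Figure D1:**
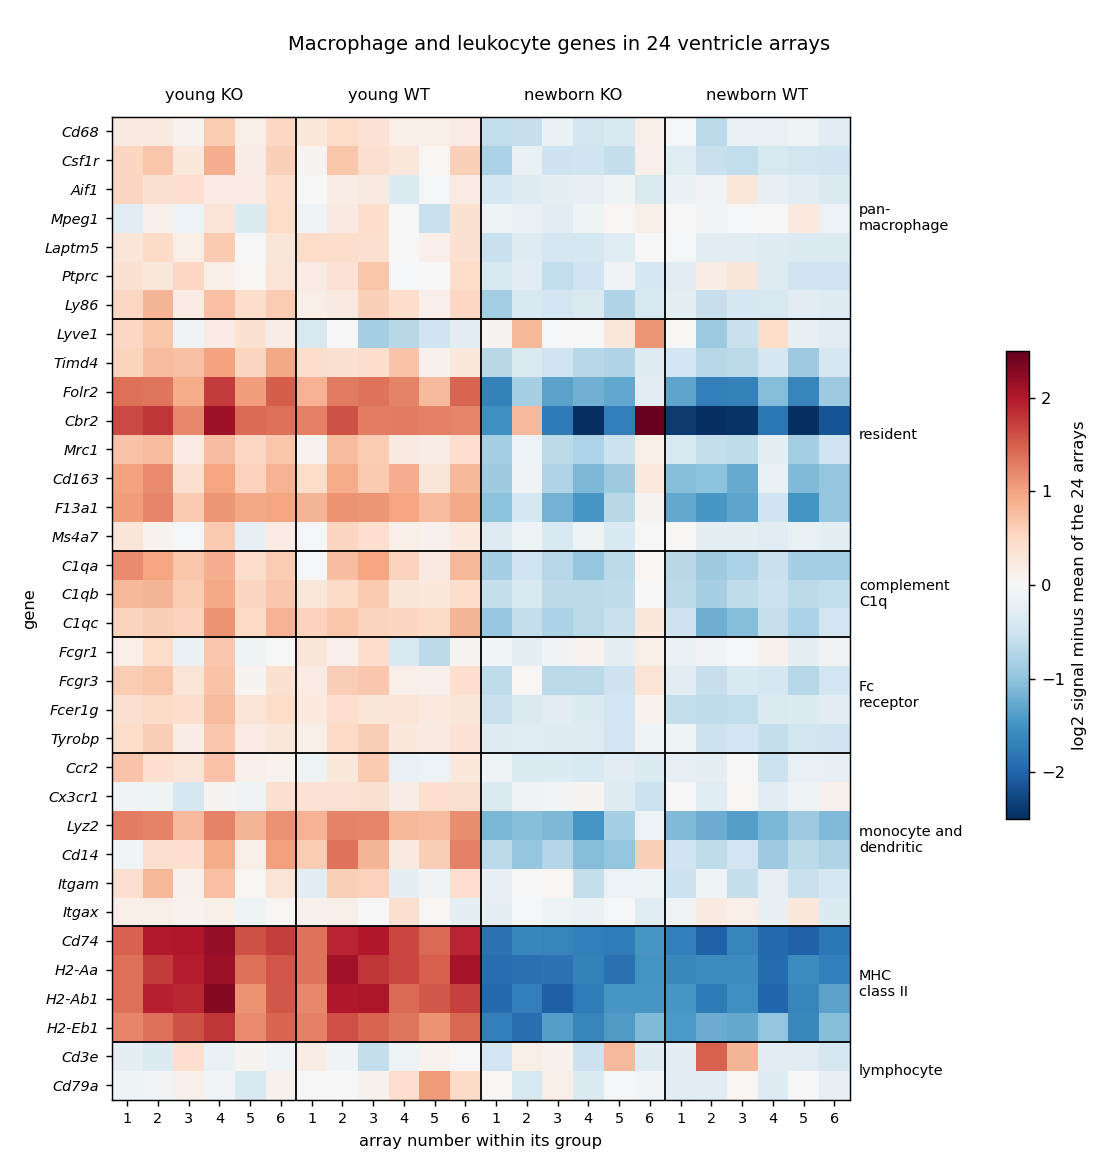
Log2 signal of the 34 genes (rows, grouped by role) in 24 arrays (columns, by group and array number), each shown as its difference from the gene's mean over all arrays. Colours stop at 2.5 above and below the mean, which Cbr2 passes in several arrays. The MHC class II rows are high in all 12 young arrays and low in all 12 newborn arrays, and Cbr2 is high in newborn KO array 6.

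The first question was how these genes differed between the young and the newborn ventricle within each genotype. Most were higher in the young heart, and among the roles MHC class II had the largest median, 3.44 in KO and 3.35 in WT hearts. In KO hearts 27 of 34 genes rose in young against newborn mice and 0 fell, beside 34% of all 18819 genes that rose and 25% that fell (limma, Benjamini-Hochberg adjusted p under 0.05). In WT hearts 28 rose and 0 fell, beside 19.2% of all genes that rose and 27.9% that fell. The median over the 34 genes was 0.88 in KO and 0.81 in WT hearts, where the median over all genes was 0.098 in KO and 0.0024 in WT. All 6 young arrays lay above all 6 newborn arrays for 21 of 34 genes in KO hearts, beside 15.9% of all genes, and for 23 of 34 in WT hearts, beside 11.5%. Without the 3 arrays with airway transcripts 27 genes rose in each genotype, and without the 3 arrays with T cell transcripts 27 rose in KO and 29 in WT hearts. Centring each array on its own median moved the all-gene medians to 0.27 in KO and 0.26 in WT, and 30 of the 34 genes then rose in KO hearts and 32 in WT hearts. The same centring raised the share of all genes that rose to 53.3% in KO and 52.3% in WT hearts, with 16% falling in KO and 15.9% in WT. With quantile normalization 28 of the 34 rose in each genotype, beside 22.6% of all genes in KO and 23.6% in WT hearts, with 23.4% falling in KO and 23.2% in WT.

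**Figure D2:**
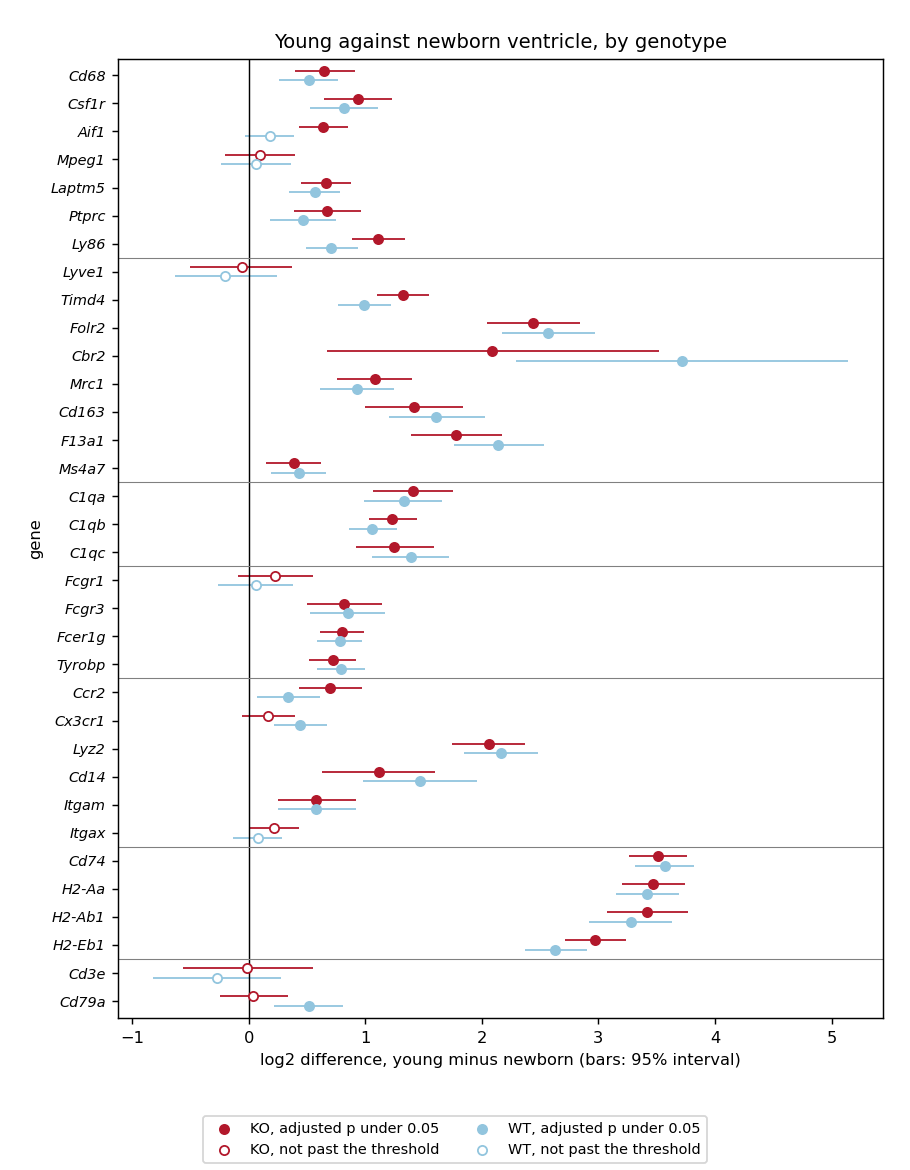
Log2 difference, young minus newborn, for the 34 genes in KO and in WT hearts, with 95% intervals from the limma fit. Filled points have an adjusted p under 0.05. The 4 MHC class II genes lie between 2.63 and 3.57, and Lyve1, Mpeg1, Fcgr1, Itgax and Cd3e have open points in both genotypes.

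MHC class II members present peptides to helper T cells. Cd74, the invariant chain that guards the peptide groove until loading, had signals of 8.50 to 9.22 (median 8.88) in young KO hearts, against 5.17 to 5.57 (median 5.32) in newborn KO hearts. Its signals were 8.37 to 9.02 (median 8.80) in young WT hearts, against 4.99 to 5.36 (median 5.15) in newborn WT hearts. No young array came near a newborn one, and Cd74 rose 11.4-fold in KO (log2 3.51 ± 0.12 SE, limma adjusted p = 3.55e-17) and 11.9-fold in WT hearts (3.57 ± 0.12, adjusted p = 3.23e-17).

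H2-Aa, the alpha chain of the I-A molecule and the first of the promoters shown above, had 7.31 to 8.08 (median 7.60) in young KO hearts, against 4.04 to 4.45 (median 4.09) in newborn KO hearts. In WT hearts it had 7.30 to 8.04 (median 7.67) in young mice, against 4.02 to 4.36 (median 4.34) in newborns. The ages were again apart in both genotypes, and H2-Aa rose 11.1-fold in KO (limma adjusted p = 1.92e-16) and 10.7-fold in WT hearts (adjusted p = 2.59e-16).

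H2-Ab1, its beta chain partner, had 7.44 to 8.62 (median 8.04) in young KO hearts, against 4.29 to 4.87 (median 4.60) in newborn KO hearts. In WT hearts H2-Ab1 had 7.52 to 8.35 (median 7.96) in young mice, against 4.34 to 4.98 (median 4.73) in newborns. With no overlap either, it rose 10.7-fold in KO (limma adjusted p = 2.88e-14) and 9.68-fold in WT hearts (adjusted p = 5.6e-14).

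H2-Eb1, the I-E beta chain, had 7.35 to 7.97 (median 7.60) in young KO hearts, against 4.29 to 5.07 (median 4.62) in newborn KO hearts. Its levels in WT hearts were 7.29 to 7.78 (median 7.55) in young mice, against 4.57 to 5.19 (median 4.92) in newborns. Its rise was the smallest of the 4 genes in both genotypes, 7.86-fold in KO (adjusted p = 1.99e-15) and 6.21-fold in WT hearts (adjusted p = 1.47e-14). The C57/Bl6 background lacks a working I-E alpha chain, so H2-Eb1 is transcribed there without its partner on the cell surface.

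Genes that load or regulate MHC class II molecules moved less. Of 12 measured, 8 rose and 2 fell in young KO hearts, and 8 rose and 1 fell in young WT hearts, with medians of 0.44 in KO and 0.40 in WT. Beside these counts, 34% of all genes rose and 25% fell in KO, and 19.2% rose and 27.9% fell in WT hearts. H2-DMa, which helps exchange the invariant chain fragment for peptide, rose by log2 1.36 in KO and 1.17 in WT hearts (limma adjusted p = 9.38e-08 in KO and 7.69e-07 in WT). Cd86, a costimulatory ligand, rose by 1.14 in KO and 0.95 in WT hearts (adjusted p = 5.42e-09 in KO and 8.66e-08 in WT). Ciita itself, chosen here after its values were seen, had array signals of 3.57 to 4.17 in young KO, 3.58 to 4.02 in young WT, 3.03 to 3.36 in newborn KO and 3.09 to 3.47 in newborn WT hearts. Within each genotype all young arrays lay above all newborn ones, and Ciita rose by log2 0.59 in KO (adjusted p = 1.29e-05) and 0.46 in WT hearts (adjusted p = 0.000267). All Ciita signals were dim, under the lowest array median of 4.24 over all probe sets. H2-Oa, the third promoter shown and also chosen afterwards, rose by 0.28 in KO hearts (adjusted p = 0.0499) and by 0.51 in WT hearts (adjusted p = 0.000891). The KO value lay just under the threshold, and H2-Oa was not followed over the alternatives.

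**Figure D3:**
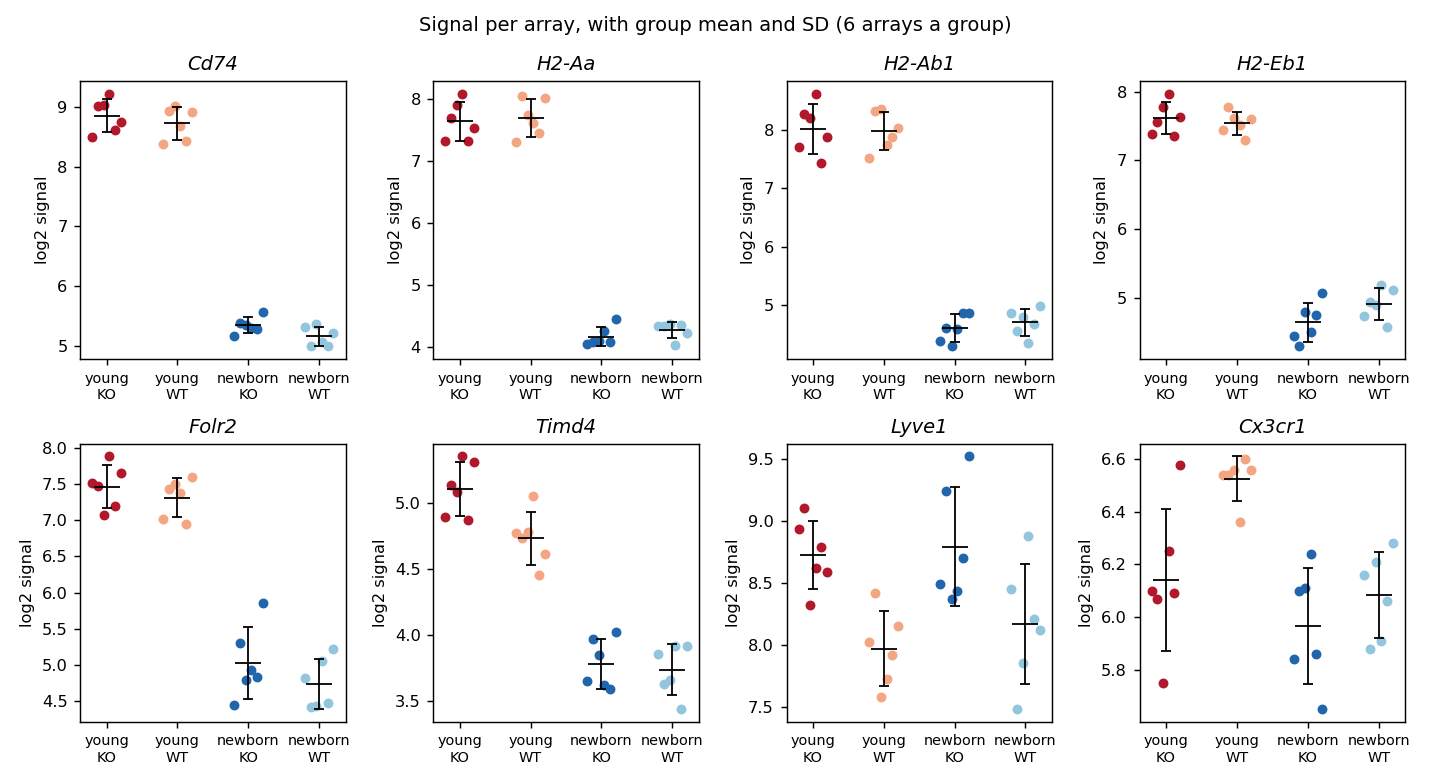
Log2 signal of 8 genes in each of 24 arrays (points), with group mean and SD (bars, 6 arrays a group). The 4 MHC class II genes, Folr2 and Timd4 separate young from newborn hearts, while Lyve1 overlaps between ages in both genotypes and Cx3cr1 in KO hearts. Vertical axes differ between panels and do not start at 0.

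Resident macrophage genes did not move as 1 group: 7 of 8 rose with age in each genotype, with a median of 1.37 in KO and 1.30 in WT hearts, and Lyve1 did not. Folr2, a folate receptor of resident macrophages, had 7.07 to 7.88 (median 7.49) in young KO hearts, against 4.45 to 5.86 (median 4.88) in newborn KO hearts. In WT hearts Folr2 had 6.95 to 7.60 (median 7.40) in young mice, against 4.42 to 5.22 (median 4.65) in newborns. The ages were apart in both genotypes, and Folr2 rose 5.41-fold in KO (limma adjusted p = 1.95e-10) and 5.94-fold in WT hearts (adjusted p = 6.23e-11).

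Timd4, a receptor for phosphatidylserine on dying cells, had 4.87 to 5.35 (median 5.11) in young KO hearts, against 3.59 to 4.02 (median 3.75) in newborn KO hearts. The matching WT values were 4.45 to 5.05 (median 4.75) in young mice, against 3.44 to 3.92 (median 3.76) in newborns. Timd4 thus separated the ages completely, and rose 2.5-fold in KO (limma adjusted p = 3.56e-10) and 1.99-fold in WT hearts (adjusted p = 3.71e-08).

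F13a1, the A subunit of coagulation factor XIII, rose 3.44-fold in KO and 4.42-fold in WT hearts (limma adjusted p = 2.28e-08 in KO and 8.51e-10 in WT). Cd163, the scavenger receptor for haemoglobin bound to haptoglobin, rose 2.67-fold in KO and 3.06-fold in WT hearts (adjusted p = 2.6e-06 in KO and 3.07e-07 in WT). Mrc1, the mannose receptor, rose 2.12-fold in KO and 1.91-fold in WT hearts (adjusted p = 2.27e-06 in KO and 1.55e-05 in WT). Ms4a7, a tetraspanning membrane protein of macrophages, rose least of the 7, by 1.31-fold in KO and 1.34-fold in WT hearts (adjusted p = 0.00625 in KO and 0.00316 in WT). Without the 3 arrays with airway transcripts the KO rises were larger, at log2 2.72 against 2.44 with them for Folr2, 2.08 against 1.78 for F13a1, 1.74 against 1.42 for Cd163 and 1.31 against 1.08 for Mrc1.

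Cbr2, a carbonyl reductase of resident macrophages that is also abundant in lung, spread widely in 1 group. In KO hearts it had 8.59 to 9.52 (median 8.93) in young mice, against 5.87, 8.20, 5.63, 4.49, 5.66 and 11.52 by array in newborns (SD 2.57). In WT hearts it had 8.61 to 8.99 (median 8.66) in young mice, against 4.47 to 5.58 (median 4.98) in newborns. The 2 high newborn KO values are the newborn KO arrays with airway transcripts: Scgb1a1, a secretoglobin of airway club cells, was at 7.49 in newborn KO array 2 and 10.98 in newborn KO array 6, against 2.74 to 3.03 in newborn WT arrays. Cbr2 rose 4.26-fold with age in KO hearts (log2 2.09, limma adjusted p = 0.0127) and 13.1-fold in WT hearts (log2 3.72, adjusted p = 7.05e-05). Without the 3 arrays with airway transcripts the rise was log2 3.57 in KO and 3.66 in WT hearts, and with only the 12 KO arrays fitted the KO call was lost (adjusted p = 0.0604).

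Lyve1, a hyaluronan receptor of resident macrophages and lymphatic endothelium, was as high in newborn as in young hearts. Its signals were 8.32 to 9.10 (median 8.71) in young KO, 7.58 to 8.42 (median 7.97) in young WT, 8.37 to 9.52 (median 8.59) in newborn KO and 7.48 to 8.88 (median 8.17) in newborn WT hearts. The ages overlapped, with a log2 difference of -0.06 in KO (95% interval -0.50 to 0.37, limma adjusted p = 0.805) and -0.20 in WT hearts (-0.63 to 0.24, adjusted p = 0.484). Without the 3 arrays with airway transcripts the KO value was 0.23 (adjusted p = 0.307).

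Complement C1q is built from the products of C1qa, C1qb and C1qc, and tags apoptotic cells for uptake. All 3 genes rose in both genotypes with no overlap between ages. C1qb had 9.69 to 10.10 (median 9.91) in young KO hearts, against 8.50 to 9.15 (median 8.54) in newborn KO hearts, and rose 2.35-fold (limma adjusted p = 2.39e-10). In WT hearts C1qb had 9.42 to 9.81 (median 9.53) in young mice, against 8.32 to 8.62 (median 8.51) in newborns, and rose 2.09-fold (adjusted p = 2.45e-09). C1qa rose 2.66-fold in KO and 2.51-fold in WT hearts (adjusted p = 9.65e-08 in KO and 2.06e-07 in WT), and C1qc 2.39-fold in KO and 2.62-fold in WT hearts (adjusted p = 4.88e-07 in KO and 8.37e-08 in WT). Without the 3 arrays with airway transcripts the KO rises were log2 1.60 against 1.41 with them for C1qa, 1.38 against 1.23 for C1qb and 1.45 against 1.25 for C1qc.

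Among the Fc receptor members, Fcer1g, the shared signalling gamma chain, rose 1.74-fold in KO and 1.72-fold in WT hearts (limma adjusted p = 9.98e-08 in KO and 1.19e-07 in WT). Fcgr3, a low-affinity IgG receptor, rose 1.77-fold in KO and 1.8-fold in WT hearts (adjusted p = 0.000103 in KO and 6.19e-05 in WT). Tyrobp, the DAP12 adaptor, rose 1.65-fold in KO and 1.73-fold in WT hearts (adjusted p = 1.15e-06 in KO and 2.03e-07 in WT). Fcgr1, the high-affinity IgG receptor, was not called, at log2 0.23 in KO (95% interval -0.09 to 0.55) and 0.06 in WT hearts (-0.26 to 0.38), but passed in both with centred arrays (adjusted p = 0.0119 in KO and 0.0407 in WT).

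Genes shared by all macrophages rose by less. Csf1r, the receptor for the macrophage growth factors Csf1 and Il34, had 7.95 to 8.67 (median 8.32) in young KO hearts, against 6.97 to 7.89 (median 7.25) in newborn KO hearts. It had 7.81 to 8.44 (median 8.10) in young WT hearts, against 7.13 to 7.46 (median 7.27) in newborn WT hearts. The lowest young array was above the highest newborn array in each genotype, and Csf1r rose 1.92-fold in KO and 1.77-fold in WT hearts (limma adjusted p = 4.26e-06 in KO and 2.31e-05 in WT).

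Ly86, which with Cd180 forms an innate sensor, rose 2.16-fold in KO and 1.64-fold in WT hearts (limma adjusted p = 7.04e-09 in KO and 5.33e-06 in WT). Laptm5, a lysosomal protein of blood cells, rose 1.58-fold in KO and 1.48-fold in WT hearts (adjusted p = 9.15e-06 in KO and 5.75e-05 in WT). Cd68, a lysosomal glycoprotein, rose 1.57-fold in KO and 1.43-fold in WT hearts (adjusted p = 8.61e-05 in KO and 0.00105 in WT). Ptprc, which encodes the pan-leukocyte protein CD45, rose 1.59-fold in KO and 1.38-fold in WT hearts (adjusted p = 0.000244 in KO and 0.00687 in WT).

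The exceptions in this group were Mpeg1 and Aif1. Mpeg1, a pore-forming protein of macrophages, differed by log2 0.10 in KO (95% interval -0.20 to 0.40) and 0.06 in WT hearts (-0.24 to 0.36), where it passed with centred arrays (limma adjusted p = 0.0349). Aif1, the actin-binding protein Iba1, rose by 0.64 in KO hearts (limma adjusted p = 1.11e-05) and differed by 0.18 in WT hearts (adjusted p = 0.166). The WT value passed the threshold in 5 alternatives, with adjusted p from 0.001 to 0.0332. The difference between these age effects was tested and is given further on.

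Monocyte and dendritic members ranged widely. Lyz2, the lysozyme of monocytes, macrophages and neutrophils, had 9.74 to 10.20 (median 10.12) in young KO hearts, against 7.46 to 8.79 (median 7.83) in newborn KO hearts. In WT hearts Lyz2 had 9.72 to 10.16 (median 9.95) in young mice, against 7.55 to 8.02 (median 7.80) in newborns. Lyz2 did not overlap between ages and rose 4.16-fold in KO and 4.48-fold in WT hearts (limma adjusted p = 5.68e-11 in KO and 1.85e-11 in WT).

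Cd14, the coreceptor for bacterial lipopolysaccharide, rose 2.17-fold in KO and 2.77-fold in WT hearts (limma adjusted p = 0.000321 in KO and 1.05e-05 in WT). Without the 3 arrays with airway transcripts its KO rise was log2 1.35, against 1.12 with them, and that of Lyz2 was 2.24, against 2.06. Itgam, the integrin chain CD11b, rose 1.5-fold in each genotype (adjusted p = 0.00387 in KO and 0.00425 in WT). Ccr2, the chemokine receptor by which monocytes leave the marrow, rose 1.62-fold in KO hearts (adjusted p = 8.16e-05) and 1.27-fold in WT hearts (adjusted p = 0.0324). Ccr2 was dim, at 2.98 to 4.24 over all 24 arrays, and its WT call was lost in 8 alternatives, with adjusted p up to 0.11. Itgax, the dendritic integrin CD11c, was as dim and was called in neither genotype (adjusted p = 0.0632 in KO and 0.574 in WT), although its KO value passed in 7 alternatives and its WT value with centred arrays.

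Cx3cr1, the receptor for the chemokine fractalkine, was called in 1 genotype. It had 5.75 to 6.58 (median 6.09) in young KO hearts, against 5.65 to 6.24 (median 5.98) in newborn KO hearts, which overlap. It had 6.36 to 6.60 (median 6.55) in young WT hearts, against 5.88 to 6.28 (median 6.11) in newborn WT hearts, which do not. Cx3cr1 differed 1.13-fold in KO hearts (limma adjusted p = 0.18) and rose 1.36-fold in WT hearts (adjusted p = 0.00156). In KO hearts it was called with centred arrays, with quantile normalization and without young KO array 3.

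Lymphocyte members were low and uneven. Cd3e, a chain of the T cell receptor complex, had 3.71 to 4.48 in young KO, 3.47 to 4.24 in young WT, 3.52 to 4.86 in newborn KO and 3.64 to 5.53 in newborn WT hearts. Its highest values were those of the newborn arrays with T cell transcripts, 4.86 in newborn KO array 5 and 5.53 and 4.91 in newborn WT arrays 2 and 3. With age Cd3e differed by log2 -0.01 in KO and -0.27 in WT hearts, and by 0.16 in KO and 0.22 in WT hearts without those 3 arrays, with no call either way (limma adjusted p = 0.982 in KO and 0.442 in WT with them, 0.353 in KO and 0.277 in WT without). Cd79a, a chain of the B cell receptor complex, differed by log2 0.04 with age in KO hearts (limma adjusted p = 0.796) and rose by 0.52 in WT hearts (adjusted p = 0.0039).

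Other macrophage genes also leaned upward with age. Of 44 on a second list, 30 rose and 3 fell in young KO hearts, and 25 rose and 4 fell in young WT hearts, with medians of 0.42 in KO and 0.35 in WT. Of all genes 34% rose and 25% fell in KO, and 19.2% rose and 27.9% fell in WT hearts. With centred arrays 53.3% of all genes rose in KO and 52.3% in WT hearts, and the counts of this list under that centring are not given here. Adgre1, an adhesion receptor used to mark mouse macrophages, rose by log2 1.30 in KO and 1.09 in WT hearts (limma adjusted p = 1e-09 in KO and 1.75e-08 in WT). Fcgr2b, the inhibitory IgG receptor, rose by 1.35 in KO and 1.17 in WT hearts (adjusted p = 1.11e-07 in KO and 8.33e-07 in WT).

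Of 19 growth factors and chemokines that act on macrophages, 13 rose and 1 fell in young KO hearts, and 10 rose and 1 fell in young WT hearts. Csf1, the main macrophage growth factor, rose by 1.32 in KO and 1.73 in WT hearts (limma adjusted p = 7.8e-13 in KO and 4.44e-15 in WT). Ccl9, a chemokine of myeloid cells, rose by 1.51 in KO and 1.46 in WT hearts (adjusted p = 1.87e-08 in KO and 2.87e-08 in WT). Of 14 transcription factors of the lineage, 11 rose and 1 fell in KO, and 9 rose and 1 fell in WT hearts. Beside the counts of both lists, 34% of all genes rose and 25% fell in KO, and 19.2% rose and 27.9% fell in WT hearts. Cebpb rose by 1.45 in KO and 1.27 in WT hearts (adjusted p = 4.24e-09 in KO and 3.21e-08 in WT). Irf8, a factor of monocyte and dendritic cell development and the 1 that fell, was named after its values were seen and dropped by 0.35 in KO and by 0.51 in WT hearts (adjusted p = 0.00743 in KO and 0.000299 in WT).

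The second question was whether KO and WT hearts differed at each age. In young hearts 0 of the 34 genes were called, beside 1.02% of all 18819 genes (192 genes, limma adjusted p under 0.05), with 0.67% higher and 0.351% lower in KO. That split depended on the scaling, with 0.393% higher and 0.558% lower with centred arrays and 0.606% higher and 0.856% lower with quantile normalization. At an unadjusted p under 0.05, 6 were higher in young KO hearts and 2 lower, beside 10.4% of all genes higher and 4.57% lower. In newborn hearts 0 of the 34 were called, beside 0% of all genes. There 3 were higher in newborn KO hearts and 1 lower at an unadjusted p under 0.05, beside 1.45% higher and 7.62% lower. For no member at either age did all 6 KO arrays lie on 1 side of all 6 WT arrays, beside 0.42% of all genes above and 0.404% below in young hearts, and 0.0531% above and 0.436% below in newborn hearts. The median over the 34 genes was 0.09 in young hearts, where that over all genes was 0.033, and 0.05 in newborn hearts, where that over all genes was -0.049.

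**Figure D4:**
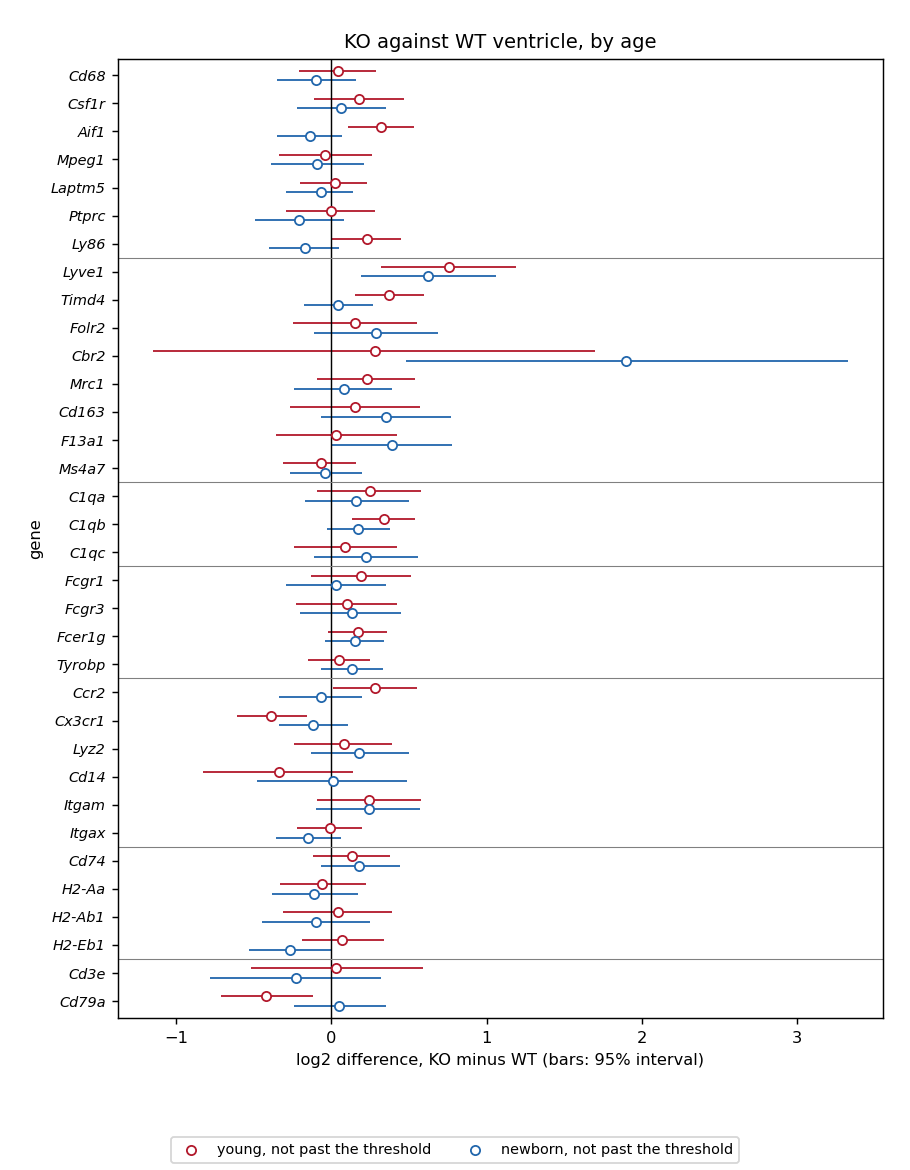
Log2 difference, KO minus WT, for the 34 genes in young and in newborn hearts, with 95% intervals from the limma fit. All points are open, since none had an adjusted p under 0.05. Lyve1 lies above 0 at both ages, and the widest intervals are those of Cbr2.

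MHC class II genes differed little between genotypes. In young hearts Cd74 was at log2 0.13, H2-Ab1 at 0.04, H2-Eb1 at 0.07 and H2-Aa at -0.06, and the 95% intervals of the 4 genes ran from -0.33 to 0.39. In newborn hearts Cd74 was at 0.18, H2-Ab1 at -0.10, H2-Aa at -0.11 and H2-Eb1 at -0.27, with intervals from -0.53 to 0.44. H2-Eb1 was the member lower in newborn KO hearts at an unadjusted p (0.0467, limma adjusted p = 0.542).

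Lyve1 had the largest difference of the members in young hearts. The values by array were 8.93, 9.10, 8.32, 8.62, 8.79 and 8.59 in young KO hearts, against 8.02, 8.42, 7.58, 7.72, 7.92 and 8.15 in young WT hearts. Only young KO array 3 lay below the highest WT array. The fold was 1.69 (log2 0.76 ± 0.21 SE, limma adjusted p = 0.0814), short of the threshold over all genes. The call was made without young WT array 2, without young KO array 3 and without the 3 arrays with airway transcripts, and the last of these gave log2 0.85 with adjusted p = 0.0117. With the atrial marker mean as a covariate among the 12 young arrays it was 0.47 (adjusted p = 0.343). The part of fibroblast markers, also higher on average in young KO hearts, was not tested.

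In newborn hearts Lyve1 had 8.49, 9.24, 8.37, 8.43, 8.70 and 9.52 in KO arrays, against 8.45, 7.48, 7.85, 8.88, 8.21 and 8.12 in WT arrays. The groups overlapped, and the 2 highest values were those of newborn KO arrays 6 and 2, which held airway transcripts. The log2 difference was 0.62 (limma adjusted p = 0.402), and 0.33 without the 3 arrays with airway transcripts (adjusted p = 1). Lymphatic endothelial genes, which share Lyve1, had array means of 6.62 to 7.25 in newborn KO and 6.60 to 6.86 in newborn WT hearts over 5 genes, and of 6.24 to 6.89 in young KO and 6.07 to 6.77 in young WT hearts. Their part in the Lyve1 values was not tested.

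**Figure D5:**
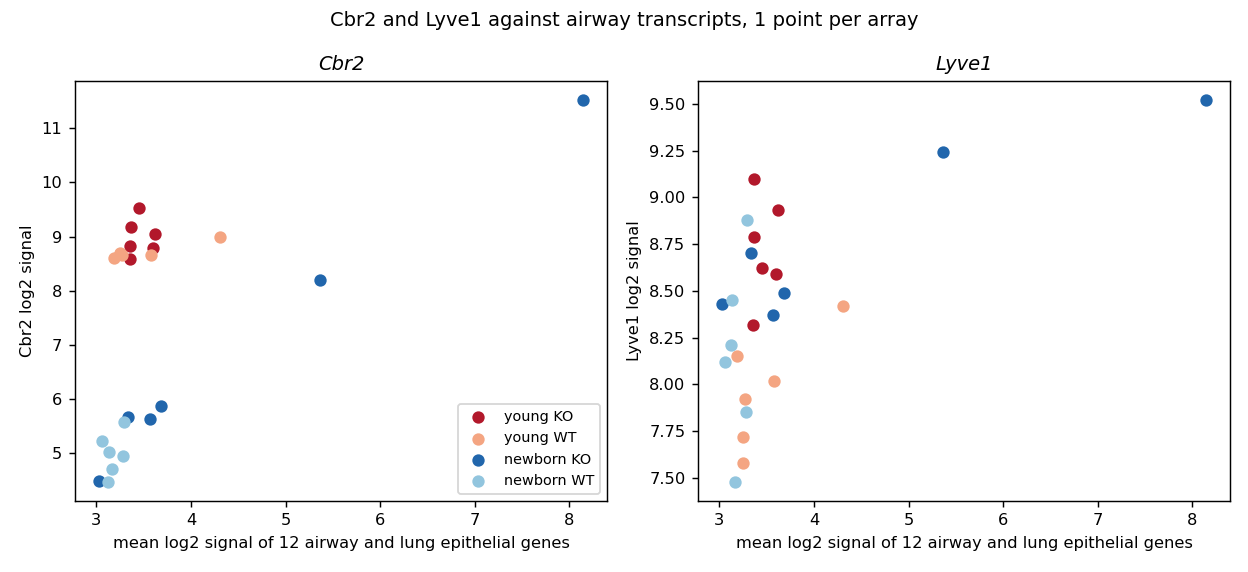
Log2 signal of Cbr2 (left) and Lyve1 (right) against the mean log2 signal of 12 airway and lung epithelial genes, 1 point per array and 1 colour per group. Newborn KO array 6, at an airway mean of 8.15, has the highest Cbr2 and Lyve1 signals of all 24 arrays, and axes do not start at 0.

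Other resident genes also moved with these arrays in newborn KO hearts. Cbr2 was at log2 1.90 (limma adjusted p = 0.415), and at 0.42 without the arrays with airway transcripts. F13a1 had 5.83 to 7.35 (median 6.42) in newborn KO hearts, against 5.79 to 6.77 (median 5.97) in newborn WT hearts, a difference of 0.39 (adjusted p = 0.546) that was 0.09 without them. Cd163 was at 0.35 (adjusted p = 0.617), and at 0.02 without them. Folr2 was at 0.29 (adjusted p = 0.668), and at 0.01 without them. Mrc1 was at 0.08 (adjusted p = 0.899), and at -0.16 without them. Newborn KO array 6 was the highest of its group for 24 of the 34 members.

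Timd4 was higher in young KO hearts by 1.3-fold, with 4.87 to 5.35 in young KO arrays, against 4.45 to 5.05 in young WT arrays. Those ranges overlap, with young WT array 4 inside the KO range, and the limma adjusted p was 0.0929. Over the alternatives that adjusted p ran from 0.0444 to 0.353. C1qb was 1.26-fold higher, with 9.69 to 10.10 in young KO hearts, against 9.42 to 9.81 in young WT hearts, and an adjusted p of 0.0941. C1qb was called without newborn KO array 6 (adjusted p = 0.0361) and without the 3 arrays with airway transcripts (log2 0.35, adjusted p = 0.0164). In the other alternatives it was not called, with a limma adjusted p of up to 0.444. With all arrays C1qa was at 0.25 (adjusted p = 0.5) and C1qc at 0.09 (adjusted p = 0.848).

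Cx3cr1 was the member lower in young KO hearts with the smallest p. By array it had 6.10, 6.07, 5.75, 6.25, 6.09 and 6.58 in young KO hearts, against 6.54, 6.54, 6.56, 6.36, 6.60 and 6.56 in young WT hearts. Of the KO arrays 5 lay below every WT array and array 6 lay among them. The log2 difference was -0.39 ± 0.11 SE (limma adjusted p = 0.0853), and it was called with centred arrays, with quantile normalization and without young KO array 6 (adjusted p from 0.0208 to 0.0346). In the other alternatives it was not called, with a limma adjusted p of up to 0.353.

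The remaining members with an unadjusted p under 0.05 in young hearts were further from the threshold. Aif1 was at log2 0.32 (limma adjusted p = 0.123), Ccr2 at 0.28 (adjusted p = 0.306) and Ly86 at 0.23 (adjusted p = 0.332). Cd79a was at -0.42 (adjusted p = 0.151), with 3.12 to 3.63 in young KO hearts, against 3.49 to 4.57 in young WT hearts.

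Among the macrophage genes that are not members, 4 were called in young KO hearts. Csf1 had 7.54, 7.54, 7.82, 7.63, 7.73 and 7.69 in young KO hearts, against 8.09, 7.99, 8.13, 8.36, 7.76 and 8.08 in young WT hearts. Only young WT array 5 lay inside the KO range, and Csf1 fell by 0.41 on the log2 scale (limma adjusted p = 0.0102). Its receptor Csf1r was at 0.18 in the same comparison, with a 95% interval of -0.11 to 0.47. Fitted on the 12 young arrays alone Csf1 was not called (adjusted p = 0.126), nor with the atrial marker mean as a covariate there (log2 -0.28, adjusted p = 0.448).

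Clec10a, a galactose-binding lectin of macrophages and dendritic cells, had 3.75, 3.69, 3.82, 3.88, 3.19 and 3.55 in young KO hearts, against 2.73, 3.27, 2.78, 3.13, 2.94 and 2.79 in young WT hearts. Young KO array 5 was the one below the highest WT array, and Clec10a rose by log2 0.71 (limma adjusted p = 0.00767), but was not called on the 12 young arrays alone (adjusted p = 0.0525) or with the atrial covariate (log2 0.68, adjusted p = 0.221). These Clec10a signals were dim, under the lowest array median of 4.24 over all probe sets. Fcgr4, an activating IgG receptor, rose by 0.53 (adjusted p = 0.0219) and was lost in 5 alternatives. Ccl12, a monocyte chemokine, rose by 0.36 (adjusted p = 0.0404) and was lost in 19 alternatives. In newborn hearts the limma difference of Clec10a was -0.16 (adjusted p = 0.714).

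The third question was whether the KO effect itself differed between ages. For 0 of the 34 genes did it pass the threshold, beside 0.0106% of all genes. At an unadjusted p under 0.05, 3 members were higher and 1 lower, beside 10.9% of all genes higher and 2.04% lower. Aif1 had the smallest p, with a KO effect larger in young than in newborn hearts by log2 0.46 (95% interval 0.17 to 0.76, limma adjusted p = 0.247). Ly86 was at 0.40 (adjusted p = 0.31) and Timd4 at 0.33 (adjusted p = 0.373), while Cd79a was at -0.47 (adjusted p = 0.345). For Cx3cr1, called with age in WT and not in KO hearts, the difference was -0.27 (95% interval -0.59 to 0.05, adjusted p = 0.468), so its age effect was not shown to differ between genotypes.

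The members varied among hearts of a group by more than most genes. The median SD over the 34 genes was 0.26 in young KO, 0.25 in young WT, 0.23 in newborn KO and 0.17 in newborn WT hearts, where that of all genes was 0.18 in young KO, 0.17 in young WT, 0.13 in newborn KO and 0.14 in newborn WT hearts. The deviations were shared in part: young KO array 4 was the highest of its group for 18 of 34 members, and young KO array 5 the lowest for 16. Ccr2, Itgax and Cd79a lay under the 30th percentile of mean signal over all genes, and 31 of 34 members were above it. That mean was taken over all arrays, so a member above it can still be dim in newborn hearts. Timd4 had 3.59 to 4.02 in newborn KO and 3.44 to 3.92 in newborn WT hearts. Ms4a7 had 3.71 to 4.11 in newborn KO and 3.84 to 4.13 in newborn WT hearts. All these values lay under the lowest array median of 4.24 over all probe sets.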

How the data were processed

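The authors deposited log2 signals per probe set from whole-transcript mouse arrays, background-corrected and normalised together by RMA (oligo 1.22 and limma 3.14 under R 2.15 in the submitters' processing notes), so that each value is relative to the other arrays of the series. Of 35017 probe sets, 21118 had 1 gene symbol in the platform annotation, 1735 several and 12164 none. The brightest probe set of each symbol over 24 arrays was kept, which gave 18819 genes. One mean per group was fitted with limma 3.58.1 under R 4.3.3, all 24 arrays sharing 1 variance per gene, and p-values were adjusted by Benjamini-Hochberg over all genes. The script was tested on simulated data. P-values set each difference against the spread between these hearts, pooled over the groups and moderated across genes by limma. Methods list both sexes, but sex per heart and sex effects were not analysed here, and the targeted genes are not reported here. The numbers of arrays limit the precision, and no 2 arrays were identical. Promoters are from RefSeq. The members and lists were chosen with earlier results of these data known. The text names every member and, from other lists, at most 4 called genes per comparison with the largest change, besides those said to be chosen afterwards and Scgb1a1 and Cd8a, also named after their values were seen. Alternatives were the low-signal filter, centring, quantile normalization, variance trend, array weights, the replicate block, mean probe sets, separate fits, atrial markers and left-out arrays.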

Additional observations from a re-analysis of the deposited data

Results flagged for a closer look

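In 9 of 136 combinations of a member and a group, 1 array lay far from the other 5. Chance alone flags about 1 in 20, or 6.8 of 136. Newborn KO array 6, which held airway transcripts, was the high one for C1qc at 8.22 (the others 7.01 to 7.40) and for Cd14 at 5.28 (3.59 to 4.01). Young WT array 2, which also held them, was high for Cbr2 at 8.99 (8.61 to 8.69). Newborn WT array 1 was high for Laptm5 at 8.0 (7.70 to 7.79), for Ms4a7 at 4.13 (3.84 to 3.91) and for Tyrobp at 6.73 (6.24 to 6.38). Newborn WT array 4 was high for Cd163 at 4.67 (3.61 to 3.90). Young KO array 4 was high for Fcer1g at 8.87 (8.40 to 8.56), and young WT array 4 was low for Cx3cr1 at 6.36 (6.54 to 6.60). The part of airway transcripts in these values was not tested.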

How the results depend on the processing

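Over 36 alternatives, 5935 values of single members were recomputed: none reversed a call, 30 were called where the reported value was not, and 9 lost the call (Ccr2 with age in WT hearts in 8 and Cbr2 with age in KO hearts in 1). The count of members called in young KO against young WT hearts, 0 as reported, was 1 with arrays centred on their median and 1 with quantile normalization (Cx3cr1 lower in each), and 2 without the 3 arrays with airway transcripts, an alternative chosen after seeing the data (Lyve1 and C1qb higher). With the replicate block it was 1 (Timd4 higher, limma adjusted p = 0.0444). The labels link same-numbered arrays by their number only. Deviations of such arrays from the group means correlated from -0.222 to 0.645 in young and from -0.438 to 0.130 in newborn hearts. Whether they shared a litter or a day cannot be told from these values. With 1 array left out the count ranged from 0 to 1, with C1qb called without newborn KO array 6, Lyve1 without young WT array 2 or young KO array 3, and Cx3cr1 without young KO array 6. In newborn hearts the count was 2 when both arrays numbered 4 were left out (Lyve1 and F13a1 higher, limma adjusted p = 0.032 and 0.0313) and 0 with any single array left out. The share of all genes called in that fit is not given here, and with all arrays it was 0%. Newborn WT array 4 was the highest of its group for Lyve1 at 8.88 and for F13a1 at 6.77. The cause was not tested. Age counts ranged from 27 to 28 in KO and from 27 to 29 in WT hearts with 1 array left out, and the count for the difference between ages stayed at 0. Signals near background limit the folds of the 3 dim members, Ccr2, Itgax and Cd79a. The age folds of members that were low in newborn hearts, such as Timd4, Ms4a7, Cd163 and H2-Aa, may be limited in the same way.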

Other observations

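The lists of other leukocytes were counted with age in the same way. Of 14 B cell genes, 8 rose and 0 fell in young against newborn KO hearts, and 4 rose and 1 fell in WT hearts. Of 18 T and natural killer cell genes, 6 rose and 0 fell in KO, and 2 rose and 0 fell in WT hearts. Of 11 dendritic cell genes, 6 rose and 1 fell in KO, and 5 rose and 1 fell in WT hearts. Beside these counts, 34% of all genes rose and 25% fell in KO, and 19.2% rose and 27.9% fell in WT hearts. The T and natural killer cell genes thus rose no more often than genes at large. Of 10 mast cell genes, 7 fell and 0 rose in KO, and 6 fell and 0 rose in WT hearts (limma, adjusted p under 0.05). Cpa3, a mast cell carboxypeptidase, had 4.52 to 6.01 in young KO hearts, against 7.91 to 8.89 in newborn KO hearts, and 4.47 to 5.26 in young WT hearts, against 7.95 to 8.45 in newborn WT hearts. It dropped by 2.88 on the log2 scale in KO and by 3.24 in WT hearts (adjusted p = 1.84e-11 in KO and 1.73e-12 in WT). Of 16 neutrophil and granulocyte genes, 7 fell and 0 rose in KO, and 5 fell and 0 rose in WT hearts, where the share that fell was close to the 27.9% of all genes. Ngp, a neutrophil granule protein, dropped by 2.28 in KO and by 1.63 in WT hearts (adjusted p = 6.56e-10 in KO and 1.42e-07 in WT). With each array centred on its median, 7 neutrophil genes fell and 5 rose in KO and 3 fell and 4 rose in WT hearts, so the direction of that list rests on the scaling, and 1 mast cell gene rose in each genotype. With that centring 53.3% of all genes rose in KO and 52.3% in WT hearts.

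Of 22 genes for the uptake of dying cells, 4 rose and 7 fell with age in KO hearts, and 3 rose and 12 fell in WT hearts. Of all genes 34% rose and 25% fell in KO, and 19.2% rose and 27.9% fell in WT hearts. With centred arrays 7 of the 22 rose and 2 fell in KO, and 7 rose and 5 fell in WT hearts. The shares of all genes were then 53.3% rising and 16% falling in KO, and 52.3% rising and 15.9% falling in WT hearts. Between genotypes none of the 22 was called in young hearts, where 10 were higher in KO at an unadjusted p under 0.05 beside 10.4% of all genes. At the same threshold 9 of 12 fibroblast markers and 9 of 12 atrial markers were higher in young KO hearts. The part of either list was not tested.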
